A study of Mus musculus with 8 samples.

Results

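Described here are the 6 granulosa cell libraries of the WT group, chosen by their sample titles from the 8 libraries of the series, with what they expressed most, what stayed level between them and what varied. Granulosa cells form the somatic layers around an oocyte and, with it, make up the ovarian follicle. They were cut by laser microdissection from follicles on sections of mouse ovary, and polyadenylated RNA was amplified by the Smart-seq2 method and sequenced. All 8 libraries came from mice whose Hif1a alleles were flanked by loxP sites (Hif1a flox/flox), the target of Cre recombinase. The WT group (n = 6) carried no Cre, so its alleles were left unrecombined, and the cKO group (n = 2, not used for any value below) also carried Foxl2-CreERT2, a Cre that tamoxifen switches on in cells expressing the granulosa gene Foxl2. Mice of both groups, 3 weeks old at the first dose, received tamoxifen at 100 mg/kg once a day over 5 days, and their ovaries were collected 7 days later. WT here therefore means a floxed, tamoxifen-treated mouse without Cre, and not an untreated one.

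The label of the WT libraries is open to a doubt that touches every value below. In the description of each of the 8 samples the library name starts with cKO, which goes against the titles and genotype labels of the 6, and here the titles decide. No label gives the animal, the ovary or the follicle stage of a library, so libraries may share an animal, and a spread between them may be technical. No group is compared and nothing is tested: each value is a description of these 6 libraries.

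A granulosa cell changes its products as its follicle grows. In small (preantral) follicles it makes anti-Müllerian hormone, and in follicles with a fluid-filled antrum it makes inhibins and activins, which are dimers built from the subunits encoded by Inha, Inhba and Inhbb, and it converts androgens to oestrogen under follicle-stimulating hormone. It stays coupled to the oocyte through gap junctions, and lies inside a basement membrane that parts it from the theca cells, vessels and stroma outside the follicle.

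The 6 libraries held from 1594979 to 4719468 reads assigned to named genes, in WT replicates 1 and 4. Levels are given as CPM, the reads of a gene per 1000000 reads on named genes in that library. Where a gene has no read, a count of 0 still allows 3 reads, between 0.636 and 1.88 CPM depending on the library. These limits cover counting error only, since reads amplified without molecular identifiers are not independent molecules. From 13597 to 14727 genes had at least 5 reads, and after each library was thinned to the depth of the shallowest, WT replicate 1, the numbers were 13989 genes in that library and 11734 to 12749 in the other 5. WT replicate 1 stood apart from the rest: its mean Spearman correlation with the other libraries, over 9872 genes with a mean of at least 10 CPM, was 0.644, against 0.743 to 0.786 for each of the other 5. No 2 libraries agreed within the noise of counting reads, which leaves out the noise of amplification.

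Inha, Foxo1, Foxl2 and Fshr, markers of granulosa cells, were read in every library. Inha, the inhibin alpha subunit, stood at 1574, 4158, 11640, 37355, 27473 and 14632 CPM in WT replicates 1 to 6. Foxo1, a transcription factor of growing follicles, stood at 582, 888, 2335, 1964, 2141 and 1632 CPM. Foxl2, the transcription factor that maintains granulosa identity, stood at 170, 197, 366, 122, 88.1 and 90.8 CPM, and Fshr, the receptor for follicle-stimulating hormone, at 46.4, 38.8, 88.4, 113, 115 and 46.1 CPM. Inha and Foxo1 were lowest in replicates 1 and 2, while Foxl2 was lowest in replicates 5 and 6. Other listed granulosa markers were not read throughout: Nr0b1 had no read in replicates 1, 2, 5 and 6, and Gatm none in replicate 3. Hif1a, the floxed gene, stood at 43.0, 30.2, 76.8, 84.5, 101.6 and 49.2 CPM.

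The 30 genes with the largest median CPM took from 10.9% to 19.4% of the reads of a library. Of these, 5 encode ribosomal proteins, 5 lie on the mitochondrial genome, 4 are granulosa markers and 2 are chaperones. The last gene inside was Ctsl, with a median of 2488 CPM, and the first outside was Ppia, with 2473 CPM. Spread is given as the SD of log2(CPM + 1) over the 6 libraries, and as the ratio of the highest to the lowest library on CPM + 1. The highest and lowest library lay within 2-fold of each other for 6 of the 30 and at least 16-fold apart for 5. Over all 4136 genes with a mean of at least 50 CPM these shares were 21.4% and 1.98%.

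**Figure D1:**
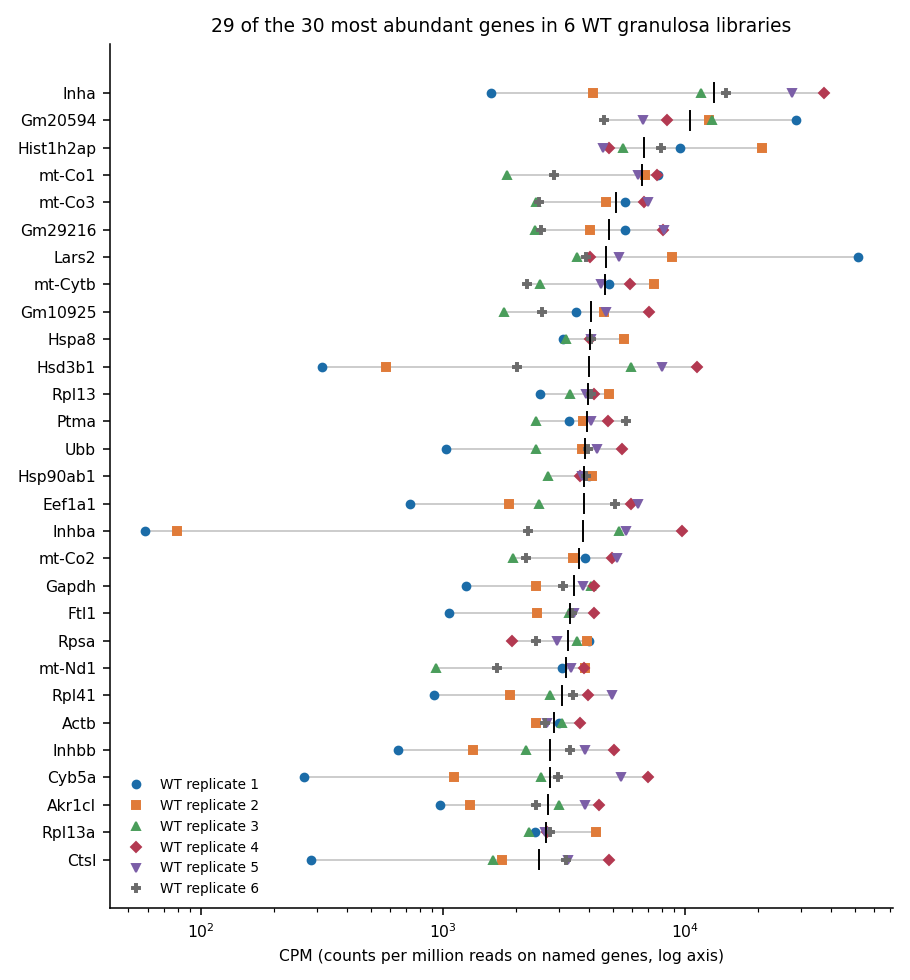
CPM of 29 of the 30 genes with the largest median CPM, on a log axis, with 1 symbol per WT library and a vertical bar at the median of the 6. Inhba, Hsd3b1, Inha, Cyb5a and Ctsl span at least 16-fold, and Actb, Hsp90ab1, Hspa8, Rpl13a and Rpl13 lie within 2-fold.

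All 3 inhibin and activin subunits were among the 30 genes, and they spread unequally. Inha (chromosome 1, 75507077 to 75510366, plus strand, in GRCm38 coordinates here and below) had the largest median CPM of all genes, 13136. Its mean was 16139 ± 13833 CPM (SD, n = 6), and it had the largest CPM of any gene in replicates 4, 5 and 6. Its extreme libraries lay 23.7-fold apart. Inhba (chromosome 13, 16011851 to 16031621, plus strand), the beta A subunit, stood at 58.8, 79.5, 5334, 9686, 5680 and 2234 CPM. Replicates 1 and 2 lay far below the other 4, and the extremes 162-fold apart. Inhbb (chromosome 1, 119415465 to 119422248, minus strand), the beta B subunit, stood at 650, 1322, 2201, 5049, 3847 and 3332 CPM, a ratio of 7.76. Levels of different genes can be set side by side only per length, as TPM (transcripts per 1000000), where the medians were 9906 for Inha, 2133 for Inhba and 651 for Inhbb. Inhbb exceeded Inhba in replicates 1 and 2, at 142 and 255 TPM against 27.6 and 37.2. In replicates 3 to 6 Inhba was the higher, at 2996, 5599, 3122 and 1270.1 TPM against 519.8, 1135, 857 and 782 for Inhbb. The order in replicate 6 rests on the lengths behind TPM, whose limit is given below, since Inhbb was the higher there by CPM.

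Enzymes of steroid synthesis and lipid metabolism followed. Hsd3b1 (chromosome 3, 98852194 to 98859794, minus strand), the enzyme that makes progesterone from pregnenolone, stood at 316, 581, 5973, 11184, 7971 and 2011 CPM, with replicates 1 and 2 lowest and replicates 3, 4 and 5 highest, as for Inhba. Cyb5a, cytochrome b5, an electron carrier of the endoplasmic reticulum, stood at 266, 1104, 2533, 6971, 5410 and 2982 CPM. Akr1cl, an aldo-keto reductase, stood at 972, 1286, 3004, 4386, 3839 and 2408 CPM. Ctsl, the lysosomal protease cathepsin L, stood at 285, 1754, 1604, 4831, 3266 and 3223 CPM. WT replicate 1 was the lowest and replicate 4 the highest in all 4 of these genes.

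Genes of the mitochondrial genome, which encodes subunits of the respiratory chain, formed the next group. mt-Co1, a subunit of cytochrome c oxidase, stood at 7715, 6815, 1825, 7600, 6359 and 2871 CPM, and mt-Co3, of the same enzyme, at 5614, 4687, 2421, 6736, 6992 and 2477 CPM. Replicates 3 and 6 were the lowest for both. The 13 protein genes together took 3.26%, 3.40%, 1.48%, 3.65%, 3.42% and 1.42% of reads in replicates 1 to 6, and again replicates 3 and 6 lay below the other 4. Their median SD was 0.70, and 0 of the 13 lay within 2-fold.

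A further pair of abundant genes is annotated as nuclear pseudogenes of mitochondrial genes and cannot be told apart from them here. Gm10925 (chromosome 1, 24613974 to 24614651, minus strand) is identical to mt-Atp6 over all 678 bases of its transcript. It stood at 3535, 4625, 1775, 7083, 4690 and 2564 CPM. Gm29216 (chromosome 1, 24615706 to 24616197, minus strand) matches mt-Co1 at 482 of 483 aligned bases, and it stood at 5608, 4041, 2391, 8044, 8137 and 2533 CPM. The stretch that holds the single difference is printed because the remaining aligned bases are identical in both. The sequences are from GENCODE M21 transcripts, with the differing base in capitals.
mt-Co1: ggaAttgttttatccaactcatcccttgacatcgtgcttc
Gm29216: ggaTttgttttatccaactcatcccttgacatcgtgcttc
The stretch covers bases 1063 to 1102 of the mt-Co1 transcript, and the difference is A1066T, counted from 1 at the start of that transcript, with the mt-Co1 base first. As for mt-Co1 and mt-Co3, both were lowest in replicates 3 and 6. Not every mitochondrial gene followed this: mt-Nd6 stood at 359.9, 478, 599.9, 309, 311 and 145 CPM, highest in replicate 3.

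Copies of this kind were common among the most abundant genes. Of the 30, 19 share at least 100 bases at 95% identity or more with the transcript of another gene, so their reads may have been split between copies. Gapdh, a glycolytic enzyme, shares such a stretch with 144 other genes, and Eef1a1, Ftl1 and Rpsa with 13 each. The 11 without such a copy were Inha, Gm20594, Lars2, mt-Cytb, Hsp90ab1, Inhba, mt-Nd1, Actb, Inhbb, Cyb5a and Akr1cl. Only GENCODE M21 transcripts were searched, so for these 11 a copy in sequence outside annotated transcripts, such as repeats, was not looked for.

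Gm20594, Lars2 and Hist1h2ap led the remaining genes, and each had the largest CPM of any gene in a library. Gm20594 (chromosome 6, 79817916 to 79818364, plus strand), a predicted gene annotated as protein coding, stood at 28520, 12550, 12927, 8348, 6686 and 4621 CPM. It had the largest median TPM of all genes, 34976, and by TPM it stood above Lars2 in replicate 1, at 101711 against 12779. By TPM it also exceeded Inha in replicates 4, 5 and 6, at 31640, 26989 and 18576 against 26880, 19843 and 11014. Lars2 (chromosome 9, 123366927 to 123462666, plus strand), the mitochondrial leucyl-tRNA synthetase, stood at 51397, 8798, 3549, 4043, 5318 and 3880 CPM. It alone took 5.14% of the reads of WT replicate 1, and without that library its SD was 0.53 in place of 1.47. Hist1h2ap (chromosome 13, 21833026 to 21833507, minus strand), a histone H2A of the kind made in S phase, stood at 9471, 20750, 5514, 4832, 4566 and 7952 CPM, highest in WT replicate 2.

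Hist1h2ap took most of the histone reads. The 66 genes named Hist1 or Hist2, a set chosen after their values were seen, summed to 12539, 24259, 8243, 6067, 5838 and 10069.5 CPM. Hist1h2ap alone made up from 66.9% to 85.5% of that sum. Its transcript is identical to that of Hist1h2ao over 452 bases, so the share belongs to a family and not surely to 1 gene. Messenger RNAs of S-phase histones end in a stem-loop in place of a poly(A) tail, and the labels name polyadenylated RNA as the molecule sequenced.

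Rpl13, both chaperones and actin were among the genes of the 30 that lay within 2-fold by column sums. Rpl13, a protein of the large ribosomal subunit, stood at 2514, 4818, 3346, 4176, 3882.5 and 4067 CPM, with an SD of 0.33. Hspa8, the constitutive Hsc70 chaperone, stood at 3118, 5594, 3215, 4045, 4077 and 4057 CPM, with an SD of 0.30. Hsp90ab1, the constitutive cytosolic Hsp90, stood at 4013, 4116, 2701, 3654, 3730 and 3894 CPM, with an SD of 0.22. Actb, cytoplasmic actin, stood at 3016, 2424, 3075, 3660, 2683 and 2634 CPM, a mean of 2915 ± 439 CPM (SD, n = 6). Replicate 1 was lowest for Rpl13 and Hspa8, replicate 3 for Hsp90ab1 and replicate 2 for Actb. Under TMM or DESeq2 size factors, which scale libraries by the bulk of genes, the SD of Hspa8 was 0.46 and 0.42, and that of Hsp90ab1 0.35 and 0.32. Likewise the SD of Rpl13 was 0.49 and 0.44, and that of Actb 0.30 and 0.24. Rpl13 and Hspa8 did not stay within 2-fold under either of these scalings.

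Other genes of translation and protein turnover among the 30 spread more widely. Eef1a1, the elongation factor that brings aminoacyl-tRNA to the ribosome, stood at 726, 1872, 2493, 5942, 6352 and 5107 CPM. Ubb, a polyubiquitin gene, stood at 1025, 3724, 2406, 5472, 4295 and 3954 CPM. Rpl41, which encodes a very short ribosomal protein, stood at 917, 1887, 2747, 3963, 4974 and 3421 CPM. WT replicate 1 was the lowest of the 6 in all 3. Rpsa, a small subunit protein, ran the other way, at 3987, 3901, 3559, 1912, 2954 and 2420.4 CPM, with WT replicate 1 highest.

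Per length, short transcripts moved up. The 15 genes with the largest median TPM included Gm20594 at 34976, Hist1h2ap at 23763, Gm29216 at 13830 and Inha at 9906, and 11 of the 15 were also among the 30 by CPM. The 4 that were not, Rpl36, Rps27, Rps29 and Rps15, encode ribosomal proteins, with median TPM of 7020, 6965, 6350 and 6008. Hsd3b1 ranked 54 by TPM, Inhba 73, Lars2 139, Inhbb 222 and Foxo1 589. These ranks rest on the lengths behind the deposited TPM, which are shorter than any annotated transcript for between 2078 and 2137 of 4113 genes per library.

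Reads were concentrated to different degrees. The top gene took from 1.29% to 5.14% of a library's reads, the top 10 genes from 5.78% to 13.5%, and the top 50 genes from 15.2% to 24.7%, with a mean of 20.1% ± 3.87 (SD, n = 6). Between 442 and 848 genes made up the first 50% of reads. Replicate 4 was the most concentrated and replicate 3 the least by that count. WT replicate 1 had the largest share on its top 10 genes, 13.5%, but a top-100 share of 28.2%, near the median library.

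**Figure D2:**
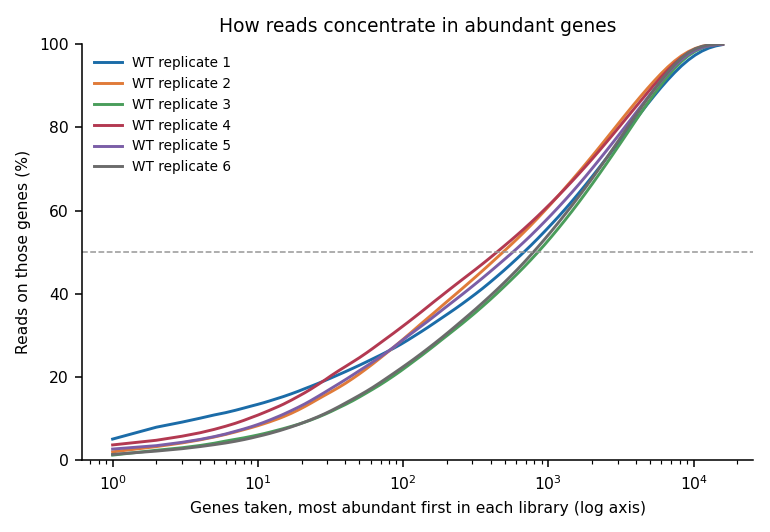
Cumulative share of reads, in percent, against the number of genes taken from the most abundant down (log axis), with 1 line per WT library and a dashed line at 50%. Replicate 4 crosses the dashed line first, at 442 genes, and replicate 3 last, at 848.

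Not all libraries had the same abundant genes. The 6 lists of the 100 most abundant genes held 173 genes between them, of which 43 were in all 6 lists and 45 in only 1. The 43 shared genes included 20 ribosomal protein genes, mt-Co1, mt-Co2, mt-Co3 and mt-Cytb of the mitochondrial genome, and the chaperones Hspa8, Hsp90ab1 and Hsp90aa1. Of the 30 granulosa markers, Inha and Serpine2, a secreted protease inhibitor, were in all 6 lists. Serpine2 stood at 1390, 2089, 2157, 3371, 2424 and 2523 CPM, an SD of 0.42. Also shared were the cyclin gene Ccnd2, the actin and tubulin genes Actb and Tubb5, the polyubiquitin gene Ubb, and Gapdh, Ftl1, Ptma and Rack1.

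Across the 4136 genes with a mean of at least 50 CPM, the median SD was 0.54, with quartiles of 0.40 and 0.75. Counting alone would give a median SD of 0.09. The median ratio of the highest to the lowest library was 2.71. Within 2-fold lay 884 genes (21.4%), and at least 16-fold apart lay 82 (1.98%). The filter is on the mean, so a gene high in few libraries passes it and then counts as spread. Zp3 and Cyp17a1, both among the 82, had medians of 13.8 and 29.7 CPM. WT replicate 1 weighs on these counts: without it, 1600 genes lay within 2-fold and 36 at least 16-fold apart, and the median SD was 0.46. Part of that change comes with leaving out any library, since the ratio of a gene over 5 libraries cannot exceed that over 6. Leaving out 1 of the others instead gave 1020 to 1198 genes within 2-fold, 55 to 81 at least 16-fold apart and a median SD of 0.54 to 0.56. WT replicate 1 was the lowest library for 1418 of the 4136 genes and the highest for 912. Among the 82 most spread it was the lowest for 36 and the highest for 22.

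Abundance did little to sort the genes by spread. The median SD lay between 0.50 and 0.57 in each of 5 ranges of mean CPM, starting at 50, 100, 200, 500 and 1000 CPM. Of the 117 genes with a mean of 1000 CPM or more, 5.98% spanned at least 16-fold, against 1.72% to 2.03% in the other ranges. The 200 genes of smallest SD had longer transcripts than the 200 of largest SD, with median lengths of the longest annotated transcript of 3811.5 and 2147 bases, beside 3339 bases over all genes. Their median GC contents were 48.9% and 49.98%, and their median mean levels 94.7 and 101 CPM.

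**Figure D3:**
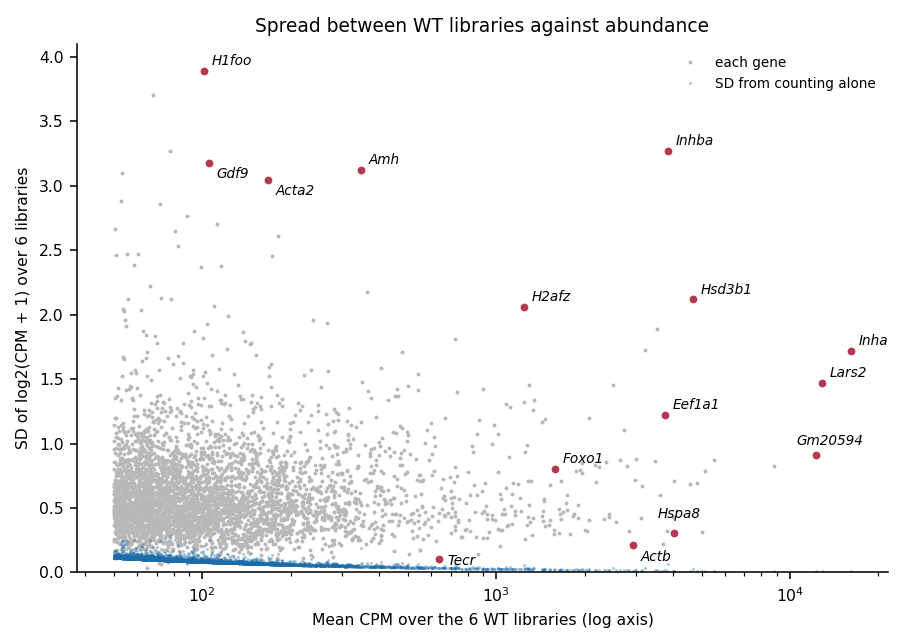
SD of log2(CPM + 1) over the 6 WT libraries against mean CPM (log axis) for the 4136 genes with a mean of at least 50 CPM, with the SD that counting alone gives in blue. Inhba and Hsd3b1 are abundant and far above the bulk of genes, whose median is 0.54. Actb and Tecr lie below that median, at 0.21 and 0.10.

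Among 1844 named genes with a mean of at least 100 CPM, the 15 with the smallest SD ran from Tecr at 0.10 to Immt at 0.16, with Puf60, also at 0.16, just outside. Tecr (chromosome 8, 83571698 to 83607971, minus strand), which carries out the last step of very long chain fatty acid elongation, stood at 598, 638, 723, 621, 602 and 658 CPM, a mean of 640.0 ± 46.4 CPM (SD, n = 6). Rab14 (chromosome 2, 35180205 to 35201120, minus strand), a small GTPase of endosomal traffic, stood at 227, 214, 209, 205, 214 and 253 CPM. Replicate 3 was highest in Tecr and replicate 6 in Rab14, and without its highest library each had an SD of 0.06.

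Several of the other 13 encode proteins that bind RNA, a description of the names and not a tested theme. Hnrnph1 and Hnrnpa2b1, nuclear proteins that act in splicing, ranged from 256 to 311 CPM and from 451 to 580.4 CPM. Tnrc6b, a partner of Argonaute in silencing by microRNAs, ranged from 139 to 176 CPM, and Pum2, a repressor that binds 3′ untranslated regions, from 100.3 to 129.5 CPM. G3bp2, a stress granule protein, ranged from 99.9 to 122 CPM. The rest were Arid2, a subunit of a chromatin remodelling complex, Slc38a2, an amino acid transporter, Gnas, the alpha subunit of the stimulatory G protein that couples hormone receptors to cyclic AMP, Rab1b, Immt of the mitochondrial inner membrane, Dnajc8, Nt5c and Tmem234. Gnas ranged from 754 to 991 CPM.

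Which genes count as the steadiest depended on how libraries were scaled. With TMM factors only 1 of the 15 stayed among the 15 of smallest SD, and with DESeq2 size factors 6 did. All 15 nevertheless stayed within 2-fold under column sums, TMM and DESeq2 alike, with a largest ratio of 1.71 and a largest SD of 0.31. Taking for each gene the largest of its 3 SDs, an alternative chosen after seeing the data, the smallest were Arid2 at 0.14, Slc38a2 at 0.14, Nt5c at 0.16 and G3bp2 at 0.17. Arid2 stood at 124, 107, 129, 109, 112 and 101 CPM. Of 4089 genes that reach a mean of 50 under every scaling, 584 lay within 2-fold and 75 at least 16-fold apart in all 3.

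**Figure D4:**
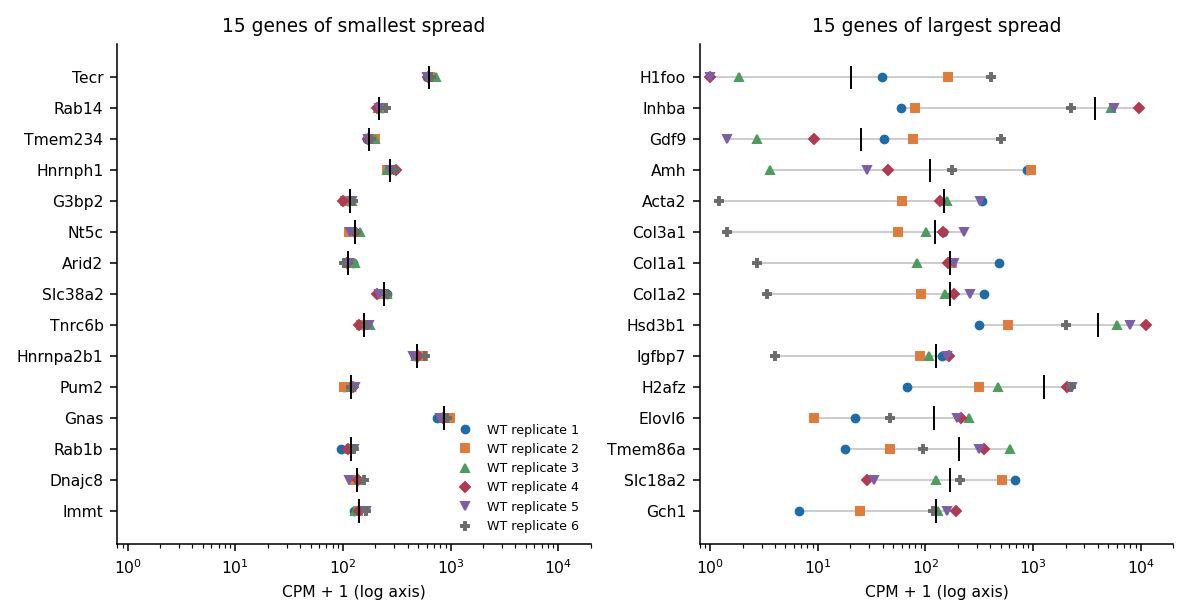
CPM + 1 on log axes for the 15 genes of smallest SD (left) and the 15 of largest SD (right), 1 symbol per WT library, vertical bar at the median. The left panel stays within 2-fold, and on the right H1foo and Gdf9 peak in replicate 6, where Acta2, Col3a1, Col1a1, Col1a2 and Igfbp7 are lowest.

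Genes often used as references for normalisation differed widely in spread. Of 16 on the list, 13 had a mean of at least 50 CPM, and their median SD was 0.82, above the 0.54 of all genes. By column sums, Actb had an SD of 0.21, Ywhaz 0.25, Rpl13a 0.32 and Tbp 0.32, and Actb alone also stayed within 2-fold under both other scalings. Gapdh stood at 0.67, Eef2 at 0.68, Ppia at 0.82 and Rplp0 at 0.86. Hprt, a purine salvage enzyme, stood at 13.8, 12.8, 14.2, 105.1, 111 and 98.4 CPM, with replicates 1 to 3 apart from 4 to 6. Pgk1, a glycolytic enzyme, stood at 11.3, 21.8, 176, 145, 197 and 273 CPM, a ratio of 22.3.

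The 15 genes of largest spread, from H1foo at 3.89 to Gch1 at 1.93 with Pgk1 at 1.87 just outside, came from several sources. Granulosa genes among them were Inhba, Hsd3b1, Amh and Slc18a2. Amh (chromosome 10, 80805243 to 80807648, plus strand), anti-Müllerian hormone, stood at 875, 957, 2.57, 43.6, 27.9 and 174 CPM. Slc18a2, a vesicular monoamine transporter, stood at 681, 515, 125, 27.8, 32.1 and 209 CPM. Both were highest in replicates 1 and 2, the libraries where Inhba and Hsd3b1 were lowest.

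Lists for follicle stages hold these same genes, so their sums are no separate support. The 10 genes listed for preantral granulosa cells took 0.248%, 0.233%, 0.202%, 0.067%, 0.058% and 0.118% of reads in replicates 1 to 6. The 10 listed for antral granulosa cells took 0.112%, 0.152%, 1.47%, 2.56%, 1.72% and 0.718%. Without Inhba and Hsd3b1 the antral list summed to 743, 859, 3424, 4747, 3594 and 2938 CPM, still lowest in replicates 1 and 2. Without Amh and Slc18a2 the preantral list summed to 925, 855, 1894, 594, 519.9 and 793 CPM, highest in replicate 3 and no longer in replicates 1 and 2. Its members differed among themselves: Bmpr1b, a receptor for bone morphogenetic proteins, stood at 18.2, 22.3, 159, 85.2, 80.3 and 64.6 CPM, lowest in replicates 1 and 2. These sums and Bmpr1b were chosen after the values were seen. The labels give no follicle stage, and its part in these values was not tested. In a list of 30 granulosa markers, 25 had a mean of at least 50 CPM, with a median SD of 1.02. None of the 25 lay within 2-fold, against 21.4% of all genes, and 5 spanned at least 16-fold, against 1.98%: Inha, Inhba, Amh, Slc18a2 and Hsd3b1. That list shares genes with both stage lists, among them Inhba, Hsd3b1, Amh and Slc18a2, so its spread is not separate from theirs.

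Amhr2, the receptor for anti-Müllerian hormone, stood at 253, 301, 145, 189, 173 and 284 CPM, an SD of 0.42, against 3.12 for its ligand. Kctd14, a granulosa marker of unclear function, stood at 309, 232, 1165, 97.1, 75.9 and 320.1 CPM, highest in replicate 3, an SD of 1.41. Lhcgr, the receptor for luteinizing hormone, stood at 16.3, 2.32, 139, 135, 102 and 37.5 CPM, with replicates 3 to 5 highest and an SD of 2.13. Of 11 genes listed for cumulus cells and ovulation, only Ptgs2 had no read in any library. Others of that list differed, with Pgr from 0 to 1.88 CPM, Adamts1 from 3.95 to 52.4 CPM and Vcan from 52.2 to 91.2 CPM.

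The upstream sequences of 4 genes are shown because Inhba and Hsd3b1 belong both to the 30 most abundant genes and to the 15 of largest SD, while Rab14 and Tnrc6b belong to the 15 of smallest SD. Only genes with the same start site in RefSeq and GENCODE were considered, and these 4 were picked after their values were seen. They are the 250 bases before the annotated start, 5′ to 3′ on the strand of the gene, from RefSeq on GRCm38.p6. Inhba lies at chr13:16011601-16011850 on the plus strand, Hsd3b1 at chr3:98859795-98860044 on the minus strand, Rab14 at chr2:35201121-35201370 on the minus strand and Tnrc6b at chr15:80711063-80711312 on the plus strand. Capitals mark matches, on either strand, to TATAAA (the TATA box), CCAAT (the CCAAT box), GGGCGG (the GC box), TGACGTCA (the cyclic AMP response element), CAAGGTCA (a site of nuclear receptors such as NR5A) or GTAAACA (a forkhead site).
Inhba: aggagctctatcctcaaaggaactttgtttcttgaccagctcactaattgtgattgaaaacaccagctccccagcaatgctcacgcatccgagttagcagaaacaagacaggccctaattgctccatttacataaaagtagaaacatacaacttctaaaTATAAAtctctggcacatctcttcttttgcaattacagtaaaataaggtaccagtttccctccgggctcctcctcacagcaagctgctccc
Hsd3b1: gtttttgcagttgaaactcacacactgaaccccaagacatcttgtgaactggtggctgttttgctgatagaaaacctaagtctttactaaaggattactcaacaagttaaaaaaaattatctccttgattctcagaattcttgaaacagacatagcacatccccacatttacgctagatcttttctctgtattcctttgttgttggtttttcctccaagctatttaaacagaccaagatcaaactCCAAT
Rab14: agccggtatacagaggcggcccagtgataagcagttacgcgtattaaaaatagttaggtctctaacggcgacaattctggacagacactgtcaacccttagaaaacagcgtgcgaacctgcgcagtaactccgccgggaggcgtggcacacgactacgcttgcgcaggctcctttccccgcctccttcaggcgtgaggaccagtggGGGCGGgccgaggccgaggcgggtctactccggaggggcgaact
Tnrc6b: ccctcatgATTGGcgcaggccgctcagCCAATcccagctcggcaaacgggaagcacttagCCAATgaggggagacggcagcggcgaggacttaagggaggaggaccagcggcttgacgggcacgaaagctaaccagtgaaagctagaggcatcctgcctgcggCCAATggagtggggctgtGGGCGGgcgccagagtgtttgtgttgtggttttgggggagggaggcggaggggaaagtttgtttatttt
Inhba holds TATAAA at positions -91 to -86 before the start, and Hsd3b1 holds CCAAT at -5 to -1. Rab14 holds GGGCGG at -44 to -39, and Tnrc6b holds 4 matches to CCAAT and 1 to GGGCGG. The GC content was 43.2% for Inhba and 36.4% for Hsd3b1, with 3 and 1 CpG dinucleotides, and 60% for both Rab14 and Tnrc6b, with 23 and 14. That contrast does not extend to the wider sets: the median GC content was 59.6%, with 14 CpG, over promoters found for the 200 genes of largest SD, and 60%, with 17 CpG, for the 200 of smallest SD. Gch1, also of the 15 most variable genes, had 59.2%. Of 32851 RefSeq promoters, 12.4% hold TATAAA, 33.8% CCAAT and 32.7% GGGCGG in the same window. Motif shares of the steady and the variable genes are not compared, and the GC medians cover only part of the variable genes, since a promoter was found for 75.5% of the 200 genes of largest SD.

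H1foo and Gdf9, both expressed by the oocyte, were also in the variable set. H1foo, the linker histone of the oocyte, stood at 38.2, 161, 0.86, 0, 0 and 407 CPM, and Gdf9, a growth factor the oocyte secretes, at 40.1, 75.02, 1.72, 8.26, 0.43 and 507 CPM. Both were highest in replicate 6, followed by replicates 2 and 1. Their medians were 19.6 and 24.2 CPM, so they passed the mean of 100 CPM only through replicate 6, and their place among the most spread genes follows in part from that filter. The 18 oocyte genes on the list together took 0.031%, 0.085%, 0.004%, 0.003%, 0.002% and 0.285% of reads. The zona pellucida gene Zp2 had no read in replicates 4 and 5, which allows up to 0.636 and 0.650 CPM. In bulk RNA, fewer oocytes or fragments of them in a sample and less RNA per oocyte cannot be told apart.

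Several genes of connective tissue and smooth muscle were lowest in the library that was highest in oocyte genes. Acta2, smooth muscle actin, stood at 333, 59.0, 158, 135, 322 and 0.22 CPM. Col3a1, a fibrillar collagen, stood at 145, 54.6, 100.4, 144, 226 and 0.43 CPM, Col1a1 at 483, 176, 82.8, 160, 182 and 1.73 CPM, and Igfbp7, a secreted binding protein, at 142, 88.3, 106.0, 163, 156 and 3.03 CPM. Replicate 6 was lowest for each, and the spread rested on it: without that library the SD fell from 3.05 to 1.02 for Acta2, from 2.70 to 0.76 for Col3a1, from 2.61 to 0.90 for Col1a1, from 2.46 to 0.75 for Col1a2 and from 2.07 to 0.38 for Igfbp7. The 10 stroma genes summed to 0.124%, 0.039%, 0.038%, 0.061%, 0.088% and 0.002% of reads. The stroma marker Mfap4 had no read in replicate 6. Not all listed genes were lowest there: the stroma genes Ogn and Lum were lowest in replicate 2, at 1.16 and 0.33 CPM. Cnn1, of the smooth muscle list, stood at 18.2 CPM in replicate 6, above its level in replicates 1 to 4.

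Markers of other cell types were listed to see their level in each library, and their sums do not measure how much RNA those cells gave. Theca markers, of cells that make androgens around the follicle, took from 0.019% to 0.092%, with Cyp17a1 at 8.78, 8.59, 50.6, 71.4, 163 and 0 CPM. Theca markers differed in replicate 6: Cyp11a1 was lowest there, at 12.6 CPM, while Hpgd was highest, at 96.2 CPM. The theca sum was 0.027% in replicate 6, above the 0.019% and 0.021% of replicates 1 and 2. Endothelial markers took from 0.010% to 0.059%, smooth muscle markers from 0.007% to 0.074%, and red blood cell genes from 0.004% to 0.033%. Immune cell markers summed to between 2.61 and 38.1 CPM, and markers of the ovarian surface epithelium to between 34.9 and 65.2 CPM. Endothelial, stromal and smooth muscle sums were highest in replicate 1, and theca sums in replicate 5. Pecam1 alone gave 349 of the 590 CPM of the endothelial sum in replicate 1, where Tie1 and Egfl7 were also highest. The endothelial markers Cdh5, Kdr and Tek were highest in replicate 4, Flt1 in replicate 3, and Emcn, Cldn5 and Esam in replicate 5. The part of these cells in the spread of granulosa genes was not tested.

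**Figure D5:**
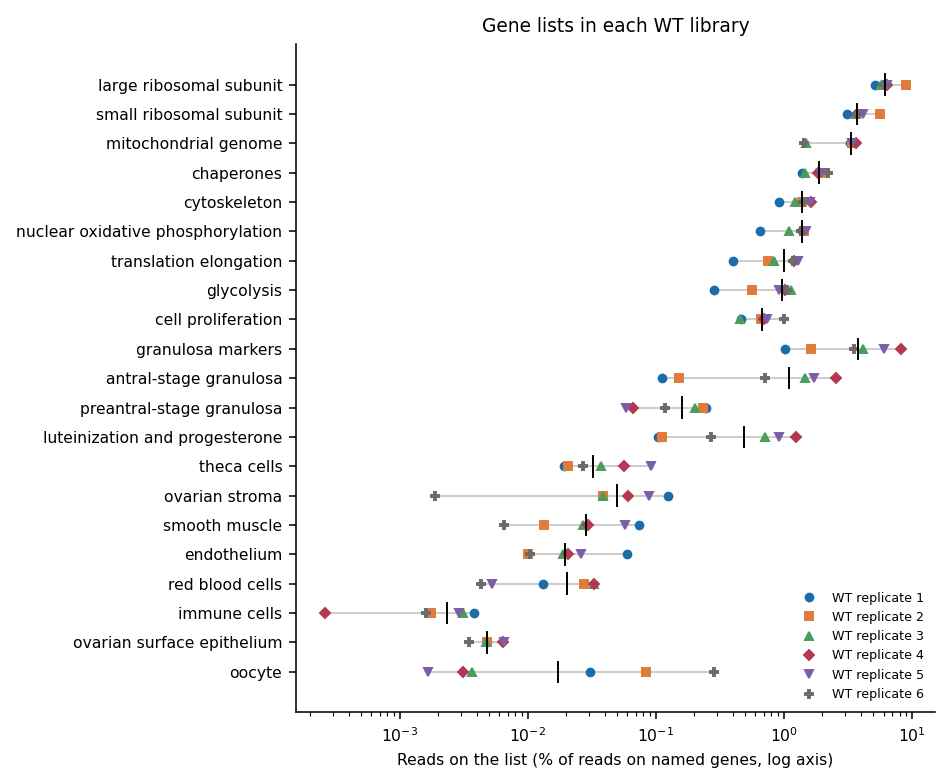
Share of reads on named genes, in percent (log axis), that each gene list took in each WT library, with 1 symbol per library and a vertical bar at the median. Ribosomal, mitochondrial and chaperone lists span under 3-fold, while the oocyte list runs from 0.002% to 0.285% and the stroma list from 0.002% to 0.124%.

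Elovl6, Gch1, Tmem86a and H2afz, of the variable set, were also lowest in replicates 1 and 2. Elovl6, a fatty acid elongase, stood at 21.1, 8.31, 255, 213, 193 and 45.9 CPM. Gch1, the first enzyme of tetrahydrobiopterin synthesis, stood at 5.65, 23.5, 131, 189.9, 157 and 116 CPM. Tmem86a, a membrane protein related to lysoplasmalogenase, stood at 16.9, 45.8, 612, 351, 314 and 94.2 CPM. H2afz, a replication-independent histone variant, stood at 66.9, 316, 467, 2079, 2290 and 2242 CPM, with replicates 4 to 6 apart from 1 to 3.

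The lists of ribosomal, chaperone and translation genes had smaller median SDs than the 1.02 of the granulosa markers, a list that shares genes with the stage lists. Shares within 2-fold are to be read against the 21.4% of all genes. The 47 genes of the large ribosomal subunit took 5.17%, 9.01%, 5.70%, 6.37%, 6.42% and 6.02% of reads, had a median SD of 0.41, and 18 of the 47 lay within 2-fold. The 32 genes of the small subunit took from 3.13% to 5.66%, with a median SD of 0.45 and 6 of 32 within 2-fold, near the share over all genes. Replicate 2 was highest on both lists and replicate 1 lowest. Within the large subunit, Rpl10 was the least steady, at 258, 797, 483, 1682, 1537 and 1348 CPM. The 16 chaperones with a mean of at least 50 CPM had a median SD of 0.44, with 6 within 2-fold, and the 10 genes of translation elongation one of 0.52, with 1 within 2-fold. None of these 4 lists held a gene at least 16-fold apart. These counts within 2-fold rest on column sums. Within 2-fold under column sums, TMM and DESeq2 alike lay 4 large subunit genes and 0 small subunit genes. The same held for 4 chaperones and 1 gene of translation elongation, against 14.3% of all genes.

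Energy metabolism split in the same data. The 36 nuclear genes of oxidative phosphorylation with a mean of at least 50 CPM had a median SD of 0.61, with 5 of 36 within 2-fold, below the 21.4% of all genes. Cox4i1, a subunit of cytochrome c oxidase, stood at 656, 1202, 802, 1061.5, 1042 and 910.1 CPM. Glycolysis genes took 0.283%, 0.566%, 1.14%, 1.02%, 0.909% and 1.06% of reads, and 11 of them had a median SD of 1.08, with none of the 11 within 2-fold. Aldoa, aldolase, stood at 655, 1173, 2674, 2043, 1601 and 1798 CPM. Both lists were lowest in replicate 1.

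Genes of the cell cycle, cytoskeleton and redox defence lay between these. The 19 proliferation genes with a mean of at least 50 CPM had a median SD of 0.74, with Ccnd2, a D-type cyclin of granulosa cells, at 1757, 2473, 1153, 1755, 1378 and 2450.2 CPM. The 19 cytoskeletal genes had a median SD of 0.66, and Tubb5, a beta tubulin, stood at 1162, 2563, 2166, 1903, 2257 and 2335 CPM. The 14 genes of glutathione and redox metabolism had a median SD of 0.72, and Gpx4, which reduces lipid peroxides, stood at 260.2, 452, 561, 822, 1001 and 853 CPM. Replicate 1 was lowest for Tubb5 and Gpx4, and replicate 3 for Ccnd2.

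Likeness between libraries ranged widely. Replicates 4 and 5 were closest, with a Spearman correlation across genes of 0.929 and with 98.7% of genes of at least 50 CPM within 2-fold. Replicates 1 and 6 had the lowest correlation, 0.572, with 56.6% within 2-fold, and replicates 1 and 4 the lowest share within 2-fold, 55.8%. Replicate 6 correlated with replicates 4 and 5 at 0.820 and 0.816. These correlations are over 9872 genes, which are not independent, and the libraries differ in depth. Replicates 4, 5 and 6 shared high levels of Inha, Eef1a1, Hprt and H2afz, while oocyte and stroma genes set replicate 6 apart from the other 2.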

How the data were processed

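Each library came as a table deposited by the authors, with expected (estimated) counts, TPM and lengths for 36635 rows, made with HISAT2 and Salmon on mm10 per the submitters' processing notes, without versions. The annotation was not given in the sources used here. Rows that carry only a transcript identifier (1548, with 0.502% to 0.739% of reads) name no gene and were dropped, which left 35087. CPM is the deposited estimated count over the column sum, times 1000000. Deposited TPM was rescaled to a sum of 1000000 over named rows. The deposited lengths were only compared with annotated transcripts, and no level was recomputed from them. Libraries do not mark strand, so reads of overlapping or antisense genes cannot be separated. Of the names, 34130 matched GENCODE M21 on GRCm38 (the assembly of mm10) and 957 did not.

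Spread is the SD of log2(CPM + 1), with a pseudocount of 1, over genes with a mean of at least 50 CPM. Estimated counts were rounded to whole numbers for thinning, for TMM (edgeR 4.0.16) and for DESeq2 1.42.0 size factors, in R 4.3.3. Copies were found with BLAST+ 2.17.0. Scripts were tested on simulated data. Alternatives were both scalings, other filters and pseudocounts, TPM, removal of mitochondrial rows or of Lars2 and Gm rows, thinning, and leaving out each library. The 2 cKO libraries enter no value.

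Named genes are the 30 with the largest median CPM, the 15 with the largest median TPM, the 15 of smallest and 15 of largest SD among genes with a mean of at least 100 CPM and no Gm or Rik number, Inha, Foxo1, Foxl2, Fshr, Hif1a, the 2 most abundant and the most spread member of each of 29 lists, and every reference gene. Serpine2, Bmpr1b, mt-Nd6, Hsp90aa1, Rack1, Ptgs2, Mfap4, Hist1h2ao and Puf60 are named outside that rule, as are Pgr, Adamts1, Vcan, Ogn, Lum, Cnn1, Nr0b1 and Gatm. So are Hpgd, Cdh5, Kdr, Tek, Flt1, Tie1, Emcn, Cldn5 and Esam. They serve for counts, for a gene at 0 or as an exception to a group, and were chosen after their values were seen. Of the list genes, 15 had no row. The libraries, genes and lists were chosen with earlier results of these data known. Some genes that the rule names are not reported here.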

Additional observations from a re-analysis of the deposited data

Results flagged for a closer look

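A library was singled out where its gap to the nearest other library was large for the range of all 6, on log2(CPM + 1). This was checked for 124 genes and 29 list sums, and chance picks about 1 in 20 groups. That rate does not hold here for genes that were named because their spread was among the largest, such as Acta2, Col3a1, Col1a1, Col1a2 and Igfbp7. It picked 13 genes and 2 lists, and in 8 of these 15 cases the library was WT replicate 6 at the low end. These 8 are not separate, since the stroma list holds Col3a1, Col1a1 and Col1a2, which are also counted as genes.

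WT replicate 6 was lowest for Acta2 at 0.217 CPM (the others from 59.0 to 333), Col3a1 at 0.433 (54.6 to 226), Col1a1 at 1.73 (82.8 to 483), Col1a2 at 2.38 (90.6 to 352) and Igfbp7 at 3.03 (88.3 to 163). It was also lowest for Col4a1, a basement membrane collagen, at 26.9 CPM (130.3 to 266), for Krt18, an epithelial keratin, at 0 CPM (6.06 to 15.9), where a count of 0 allows up to 0.650 CPM, and for the summed stroma list at 18.9 CPM (384 to 1238).

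WT replicate 1 was highest for Lars2 at 51397 CPM (the others from 3549 to 8798), for Fdxr, a mitochondrial reductase of steroid synthesis, at 312 CPM (188 to 225), and for Pecam1, an endothelial adhesion protein, at 349 CPM (52.3 to 91.8). It was lowest for Fdps, an enzyme of the cholesterol pathway, at 132 CPM (276 to 416).

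The remaining cases lay in other libraries. WT replicate 3 was lowest for Hsp90ab1 at 2701 CPM (the others from 3654 to 4116), WT replicate 2 was highest for Rpl13a at 4249 CPM (2254 to 2762), and WT replicate 4 was lowest on the summed immune list at 2.61 CPM (16.03 to 38.1).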

How the results depend on the processing

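No paired analysis was possible because no groups were compared. Of the summary values recomputed under the alternatives, 60 stayed close (counts within 1.5 times, other values within 1 jackknife SE or 1 SD) and 13 moved further. With a mean of at least 10 CPM (9872 genes) the median SD was 0.63, with 1423 genes within 2-fold and 497 at least 16-fold apart. With a mean of at least 100 CPM (1892 genes) these counts were 420 and 40, and with no filter (24109 genes) the median SD was 0.65, with 5628 and 993 genes. Counts and not shares were compared, so a filter that changes the number of genes can move a count while its share stays close. On TPM, 415 of 2277 genes lay within 2-fold and the top 50 genes took 34.0%. Leaving out each library in turn gave a median SD of 0.46 to 0.56, from 1020 to 1600 genes within 2-fold, from 36 to 81 at least 16-fold apart, a top-50 share of 19.2% to 21.1%, and 43 to 54 genes in every top 100. The low SD, the 1600 and the 36 are without WT replicate 1. Of 1041 SDs recomputed for 75 genes, 955 moved little and 86 more. The worst of 3 scalings was an alternative chosen after seeing the data. Depth limits genes below 1.88 CPM in WT replicate 1.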
